A study of Homo sapiens and Mus musculus with 16 samples.

Results

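The genes described here encode IL1 family cytokines (IL1A, IL1B, IL18) and IL32, the colony-stimulating factors CSF1, CSF2 and CSF3, and the CC chemokines CCL2, CCL5 and CCL20. They were picked out by symbol, from families chosen with earlier results of these data known, and number 10 genes of the 58713 rows of the human table and 9 genes of the 53796 rows of the mouse table, since mice have no IL32 row. Total RNA had been sequenced from the human breast cancer line MDA-MB-231 (triple-negative, grown in DMEM) and the mouse colon carcinoma line CT26 (grown in RPMI 1640). In each line 4 libraries carried the wild type label and 4 the PD-L1 knockout label, 16 libraries in all. The knockout had been made with CRISPR delivered by lentivirus, and the design asks what loss of PD-L1, a surface protein that binds PD-1 on T cells, does to the transcripts of the tumour cell itself. The sources used here do not say if the knockout cells were a clone or a pool, if the wild type cells had received a control virus, or if the 4 libraries of a group were separate cultures. Each p-value is therefore relative to a spread between libraries that may be technical only.

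IL1A and IL1B signal through the receptor IL1R1 and its partner IL1RAP, which recruit MYD88 and IRAK kinases and switch on NF-kappaB. IL1B and IL18 are made as inactive precursors that caspase-1 cuts, whereas IL1A acts without that step. CSF1 supports macrophages through CSF1R, CSF2 (GM-CSF) acts on myeloid cells and dendritic cells, and CSF3 (G-CSF) drives neutrophil production. CCL2 attracts monocytes, CCL5 attracts T cells and other leukocytes, and CCL20 attracts cells that carry CCR6. Several of these genes are textbook NF-kappaB targets, and carcinoma cells are a known source of CSF2 and CSF3.

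Promoter sequence is shown for the members with an entry in the RefSeq promoter table (GRCh38.p14), as a description of the letters just before their start. An entry was found for 5 of the 10 human members. The 250 bases before the start are given 5′ to 3′, and for IL1A and IL32, with 2 entries each, the first is shown. Capitals mark matches to the motifs searched on both strands.
IL1A (chr2:112784401-112784650, minus strand): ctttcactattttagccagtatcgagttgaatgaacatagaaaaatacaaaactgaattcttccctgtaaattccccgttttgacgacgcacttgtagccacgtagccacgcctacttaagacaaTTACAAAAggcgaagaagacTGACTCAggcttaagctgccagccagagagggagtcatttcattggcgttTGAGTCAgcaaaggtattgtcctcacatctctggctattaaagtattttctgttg
IL1B (chr2:112836780-112837029, minus strand): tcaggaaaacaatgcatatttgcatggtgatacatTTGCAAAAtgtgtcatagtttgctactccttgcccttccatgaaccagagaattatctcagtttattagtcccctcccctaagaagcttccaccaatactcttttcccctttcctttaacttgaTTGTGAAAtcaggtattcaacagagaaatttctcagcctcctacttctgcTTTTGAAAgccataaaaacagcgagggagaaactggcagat
IL32 (chr16:3065153-3065402, plus strand): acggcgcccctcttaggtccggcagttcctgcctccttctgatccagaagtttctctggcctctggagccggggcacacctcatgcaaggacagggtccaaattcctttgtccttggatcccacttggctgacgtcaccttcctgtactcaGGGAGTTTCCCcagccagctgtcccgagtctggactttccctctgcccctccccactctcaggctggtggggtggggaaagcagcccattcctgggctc
CSF2 (chr5:132073539-132073788, plus strand): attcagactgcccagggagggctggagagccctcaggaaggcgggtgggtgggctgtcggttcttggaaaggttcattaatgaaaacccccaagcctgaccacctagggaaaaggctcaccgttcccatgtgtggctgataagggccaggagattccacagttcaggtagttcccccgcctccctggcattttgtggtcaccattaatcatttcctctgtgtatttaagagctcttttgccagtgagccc
CCL20 (chr2:227813592-227813841, plus strand): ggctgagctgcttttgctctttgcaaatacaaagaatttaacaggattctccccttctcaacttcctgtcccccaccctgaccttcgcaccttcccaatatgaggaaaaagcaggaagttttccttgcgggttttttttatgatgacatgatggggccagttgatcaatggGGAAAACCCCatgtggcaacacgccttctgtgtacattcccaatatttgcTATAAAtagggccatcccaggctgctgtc
IL18, CSF1, CSF3, CCL2 and CCL5 had no entry.

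The motifs were NF-kappaB (a pattern of 10 letters that starts with GGG and ends with CC), AP-1 (TGANTCA), C/EBP (TTNCNNAA) and the TATA box (TATAAA). The IL32 window held an NF-kappaB match from -99 to -90, read from the start, and an overlapping match on the other strand from -98 to -89. The window of its second entry held none of the motifs. The CCL20 window held an NF-kappaB match from -79 to -70 and a TATA box from -29 to -24. In the IL1A window, AP-1 matched from -105 to -99 and from -55 to -49, with a C/EBP match from -125 to -118. The window of the second IL1A entry held an AP-1 match from -12 to -6 and a TATA box from -239 to -234. Its C/EBP matches ran from -199 to -192 and from -32 to -25. The IL1B window held 3 C/EBP matches, starting at -215, -91 and -41, and the CSF2 window none of the motifs. Over 35116 promoter windows of the same length, 9.96% held an NF-kappaB match, 6.57% an AP-1, 33.2% a C/EBP and 10.7% a TATA box. A match of letters is a description and not a measured binding site. A site that departs from the letters searched was not counted, so a window without a match can still hold one.

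Levels are in FPKM as deposited, which scales fragments by transcript length and by the mapped total. CD274, which encodes PD-L1, stood at 12.2 ± 0.670 FPKM (SD, n = 4) in wild type and 10.6 ± 1.91 (SD, n = 4) in knockout MDA-MB-231, and its groups overlapped. Its log2 difference was -0.20 with a 95% interval from -0.48 to 0.07 (limma, adjusted p = 0.166), and it passed after upper-quartile scaling (-0.40, adjusted p = 0.0157) and quantile normalization (-0.32, adjusted p = 0.0425). Cd274 in CT26 stood at 1.41 ± 0.127 and 0.526 ± 0.0552 FPKM (SD, n = 4 each), a log2 difference of -0.66 (limma, adjusted p = 1.42e-04). No knockout library of CT26 reached 1 FPKM for Cd274. It was thus tested only through its wild type level, and its p-value is no independent check of the labels. The labels are used as given, since mRNA level alone does not show whether the coding sequence was disrupted. Relative depth, read from the smallest FPKM steps, was 0.941 to 1.21 in wild type and 0.509 to 0.779 in knockout MDA-MB-231 libraries, with wild type replicate 1 set at 1, and 0.799 to 1.14 and 0.926 to 2.49 in CT26. The MDA-MB-231 knockout libraries were thus the shallower ones, and low values there carry more counting error. MDA-MB-231 expressed VIM (1113 FPKM in wild type, 2545 in knockout) and CD44 (1093 and 321), while KRT7 fell from 1370 to 37.8. In CT26, Vim stood at 3802 and 4531 FPKM, Krt18 at 33.7 and 31.6, and Krt20 rose from 1.78 to 10.4. Cdx2 went from 0.0415 to 0.930 FPKM, under the filter, Krt8 stood near 0.14, and Epcam, Cdh1 and Vil1 were at or near 0. Of the leukocyte markers, CD3E and NKG7 were among those listed at 0 in every MDA-MB-231 library, and the list summed to 110 to 115 FPKM in wild type and 79.0 to 95.7 in knockout, nearly all of it CD68. All 3 tested markers of that list fell with the members, where 25.7% of all tested genes were lower. CD68 went from 105 to 85.9 FPKM (-0.29), CD14 from 2.69 to 0.719 (-1.11) and CSF1R from 4.32 to 0.407 (-1.90). No knockout library of CD14 or CSF1R reached 1 FPKM, so both were tested only through wild type and had to differ. PTPRC, LYZ and ITGAM, at means of 0.269, 0.322 and 0.186 FPKM in wild type, were listed at 0 in every knockout library. CD163 and TPSAB1 went the other way, from 0 in wild type to means of 0.0499 and 0.0308 FPKM in knockout. Cd3e, Cd163 and Csf1r were listed at 0 in every CT26 library, and the list summed to 20.7 to 25.02 and 53.9 to 59.2 FPKM, with Cd14 rising from 17.1 to 53.6 and Cd68 falling from 5.30 to 3.55. The part of these markers in the results below was not tested, and in bulk RNA fewer expressing cells and less RNA per cell cannot be told apart.

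In MDA-MB-231 the members with the highest wild type levels, CSF1, CSF2, IL32 and CSF3, all fell. CSF1, CSF2 and CSF3 kept 4.33%, 2.96% and 9.91% of their wild type mean, and IL32 went from 43.4 FPKM or more to 0.437 or less, while IL18 rose 2.84-fold. The lower-level genes IL1A, CCL2, CCL5 and CCL20 were lower in every knockout library than in any wild type library. IL1B alone overlapped between the groups. Of the 10 members, 6 reached 1 FPKM in at least 4 of the 8 libraries, and 5 of them passed an adjusted p of 0.05 in limma, 1 higher and 4 lower. That count stands against a background in which 68.2% of the 14450 genes tested passed, 42.6% higher and 25.7% lower in knockout. IL32 passed the filter only through its wild type level and so had to differ. Of the other 5 tested members 4 passed, 1 higher and 3 lower, and their median log2 difference was -3.03, where all tested genes had a median of 0.18 and a middle 90% from -1.60 to 1.43. Upper-quartile scaling moved the median of all genes to -0.01 and turned the split from 6149 higher and 3711 lower to 4736 and 4851. The direction of each of the 5 called members was the same under that scaling.

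**Figure D1:**
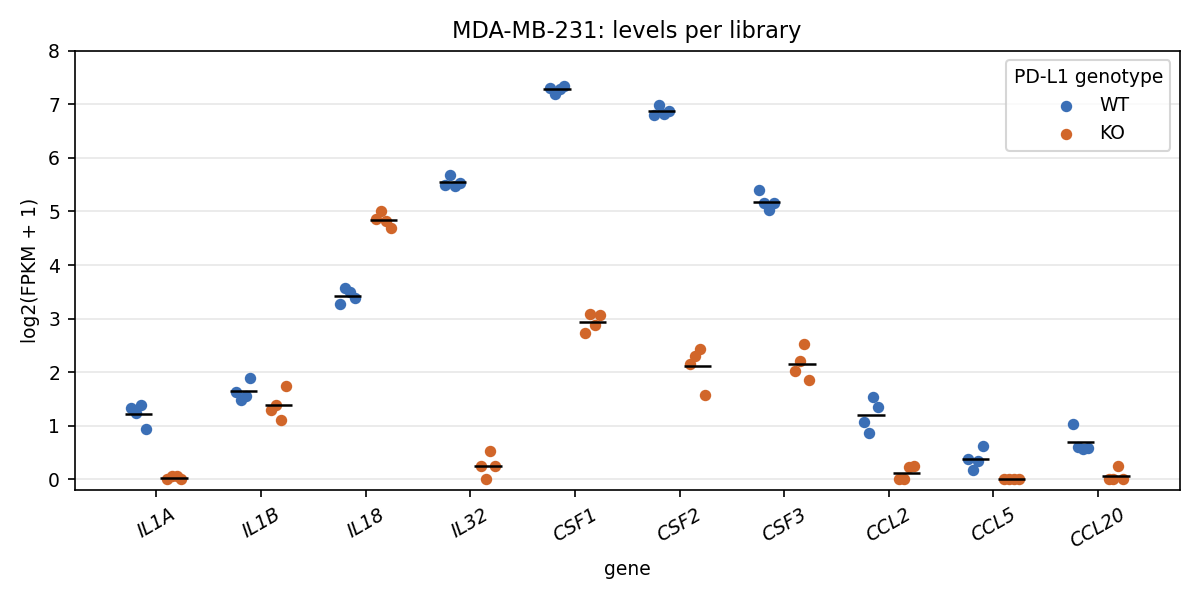
Level of each of the 10 genes in the 8 MDA-MB-231 libraries, as log2(FPKM + 1), with 1 point per library, wild type (WT) and knockout (KO) side by side, and a bar at the mean of each group. The knockout points lie below the wild type points for 8 genes and above them for IL18, and the groups overlap for IL1B.

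CSF1 stood at 157, 146, 155 and 162 FPKM in the wild type libraries and 5.65, 7.50, 6.34 and 7.39 in the knockout. It was the most abundant of these transcripts in wild type cells, and every knockout library lay far below every wild type one. Its mean went from 155 ± 6.99 to 6.72 ± 0.882 FPKM (SD, n = 4 each), a log2 difference of -4.34 with an SE of 0.086 (limma, adjusted p = 2.16e-09). CSF2, the gene for GM-CSF, stood at 111, 125, 112 and 117 FPKM in wild type and 3.42, 3.93, 4.42 and 1.99 in knockout. The groups were again wide apart, and the lowest knockout value was in replicate 4. Knockout cells kept 2.96% of the wild type mean, which went from 116 ± 6.48 to 3.44 ± 1.05 FPKM, a log2 difference of -4.76 with an SE of 0.17 (limma, adjusted p = 4.55e-08). CSF3, the gene for G-CSF, stood at 41.3, 34.5, 31.7 and 34.6 FPKM in wild type and 3.05, 3.63, 4.78 and 2.63 in knockout. It fell less than CSF1 and CSF2 in log2 terms, by 3.03 with an SE of 0.15 (limma, adjusted p = 2.89e-07), and 9.91% of the wild type mean remained.

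The balance among these factors also differed between the groups. CSF2 stood at 2.68 to 3.63 times CSF3 in the wild type libraries and at 0.754 to 1.12 times in the knockout. CSF1 over CSF2 ran from 1.16 to 1.42 in wild type and from 1.43 to 3.72 in knockout. These ratios were picked after the values had been seen and are given as a description.

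IL32, a cytokine gene outside the IL1 family by sequence that is known to induce inflammatory cytokines, stood at 43.96, 50.04, 43.4 and 45.3 FPKM in wild type. In knockout it was listed at 0.183, 0, 0.437 and 0.185 FPKM. No knockout library reached 1 FPKM, so the gene was tested only through its wild type level. The log2 difference was -5.29 with an SE of 0.12 (limma, adjusted p = 3.40e-09), the 39th lowest of the 14450 genes tested, with CSF2 at rank 54, CSF1 at 68 and CSF3 at 174. IL32 shares its locus with the small RNA pseudogene RNU1-125P on the same strand, listed at 30.3, 8.56, 0 and 0 FPKM in wild type and 0 in every knockout library. The sources used here do not say how the counting divided their reads.

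IL18, whose product promotes interferon-gamma release by T and NK cells, stood at 8.61, 10.9, 10.3 and 9.49 FPKM in wild type and 28.2, 31.2, 27.1 and 24.9 in knockout. It was the only called member with the higher values in knockout, and the groups did not overlap. The mean rose from 9.81 ± 0.977 to 27.9 ± 2.62 FPKM (SD, n = 4 each), a log2 difference of 1.42 with an SE of 0.092 (limma, adjusted p = 1.62e-06). This made IL18 the most abundant of the members in knockout cells, above CSF1 at 6.72 FPKM. The deposited locus of IL18 is wider than the gene, and the antisense gene AP002884.3 overlaps it. That gene stood at 0.204 FPKM in wild type and 0.457 in knockout. The sources used here do not say whether strand was used, so reads of the pair cannot be told apart.

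IL1B, the precursor cut by caspase-1, stood at 2.11, 1.80, 1.94 and 2.71 FPKM in wild type and 1.44, 1.63, 1.17 and 2.33 in knockout. The knockout values were on the low side, but replicate 4 lay inside the wild type range. The log2 difference was -0.26 with a 95% interval from -0.61 to 0.09 (limma, adjusted p = 0.162). Without knockout replicate 4 it was -0.38 (limma, adjusted p = 0.0367), and after upper-quartile scaling -0.40 (adjusted p = 0.0430), both past the threshold. IL18 over IL1B ran from 3.50 to 6.05 in wild type libraries and from 10.7 to 23.2 in knockout libraries, a ratio also picked after the values had been seen.

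IL1A, the IL1 form that acts without caspase-1, stood at 1.502, 1.35, 1.62 and 0.914 FPKM in wild type and was listed at 0, 0.0457, 0.0461 and 0 in knockout. Read as whole steps of the smallest value, taken as 1 fragment each, these are 54, 59, 55 and 37 steps against 0, 1, 1 and 0. IL1A thus went from near the level of IL1B to close to the limit of these libraries. It missed the expression filter, and an exact two-sided permutation test of log2(FPKM + 1) gave p = 0.0286, the smallest that 4 against 4 libraries allow. With no filter, limma gave an adjusted p of 6.39e-05 for a log2 difference of -1.19.

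The 3 CC chemokine genes were low in wild type MDA-MB-231 and lower in knockout. CCL2, which attracts monocytes, stood at 1.10, 0.824, 1.91 and 1.54 FPKM in wild type and 0, 0, 0.167 and 0.196 in knockout. CCL20, the ligand of CCR6, stood at 1.04, 0.513, 0.479 and 0.5004 FPKM against 0, 0, 0.190 and 0. CCL5 stood at 0.308, 0.128, 0.273 and 0.548 FPKM against 0 in all 4 knockout libraries. In each of these genes the lowest wild type library lay above the highest knockout library, and most knockout values were listed at 0. The exact two-sided permutation test gave p = 0.0286 for each, unadjusted, and limma without a filter gave adjusted p = 9.14e-04 for CCL2, 0.00377 for CCL20 and 0.00913 for CCL5. With IL1A these 4 genes raised the count of members passing from 5 to 9 of 10, of which 8 were lower, when no filter was applied. In that run 11115 of all 31429 genes passed, 6459 higher and 4656 lower in knockout. In the authors' deposited table the q-values of IL1A (0.332) and CCL2 (0.215) did not pass, and CCL5 and CCL20 were not tested. The antisense gene AC015849.1 overlaps CCL5 and was listed at 0, 1.40, 0.602 and 0 FPKM in wild type and 0 in every knockout library. Its reads and those of CCL5 cannot be told apart, so the values of CCL5 are uncertain. In all, 9 of the 10 members had groups that did not overlap, against 35.4% of the 31429 genes above 0 in any MDA-MB-231 library. Among genes whose highest library lay from 0.3 to 2 FPKM, a range set after the values were seen that holds all 4 low members, 11.9% of 8450 had groups that did not overlap with knockout lower.

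The order of the levels changed with the group. Wild type MDA-MB-231 ran CSF1, CSF2, IL32, CSF3, IL18, IL1B, and the libraries of each of these genes lay apart from those of the next. IL1A, CCL2, CCL20 and CCL5 followed, each overlapping its neighbour. In knockout the order was IL18, CSF1, CSF3, CSF2, IL1B, IL32, CCL2, CCL20, IL1A and CCL5. There IL18 lay apart from CSF1 and CSF1 from CSF3, while CSF3 overlapped CSF2 and CSF2 overlapped IL1B. IL1B lay apart from IL32, and from IL32 downwards every neighbour overlapped.

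In CT26 most of these genes were listed at or near 0, and the 2 members with a clear level both fell: Csf1 to 55.6% and Ccl5 to 31.4% of the wild type mean. Only these 2 of the 9 members passed the expression filter, and both passed limma. The background here was 55.8% of 11342 tested genes, 22.3% higher and 33.5% lower. Their median log2 difference of -1.20 stands against -0.06 over all tested genes, whose middle 90% ran from -0.72 to 0.70. Upper-quartile scaling turned the split of all calls from 2534 higher and 3794 lower to 3316 and 2840, and both members were still lower under it.

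**Figure D2:**
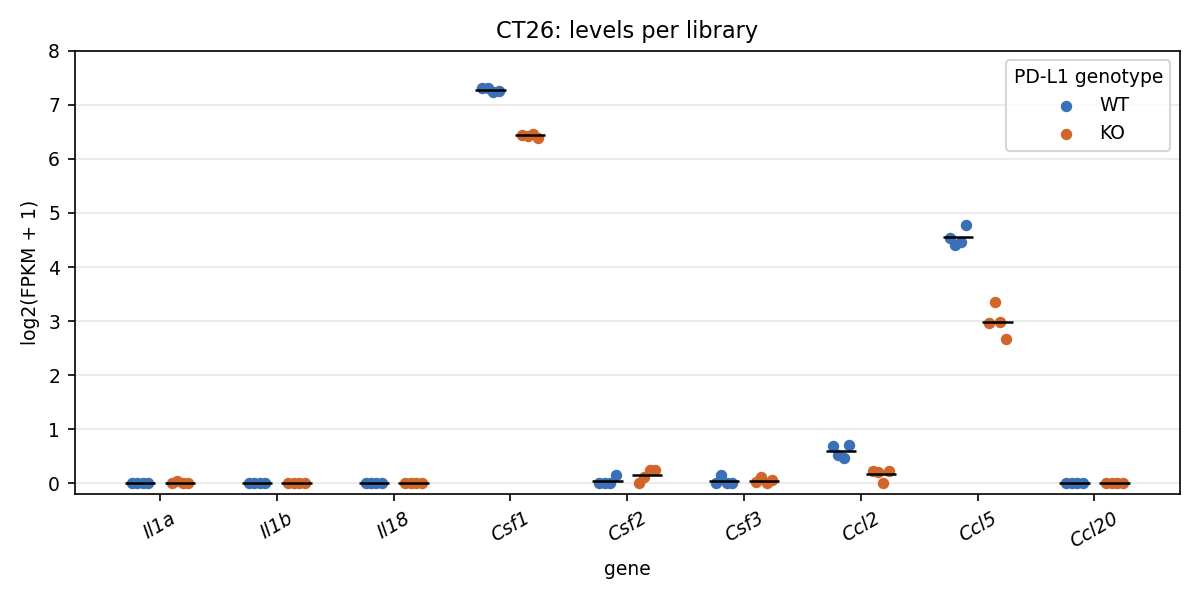
Level of each of the 9 mouse genes in the 8 CT26 libraries, as log2(FPKM + 1), with 1 point per library and a bar at the mean of each group. Csf1 and Ccl5 are the only members above 1 FPKM, with the knockout points below the wild type points, and Il1b, Il18 and Ccl20 lie at 0 throughout.

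Csf1 stood at 157, 157, 149 and 152 FPKM in wild type and 86.4, 85.1, 87.6 and 82.8 in knockout. The libraries of each group lay close together and the groups were well apart. Its mean went from 154 ± 4.01 to 85.5 ± 2.06 FPKM (SD, n = 4 each), a log2 difference of -0.84 with an SE of 0.031 (limma, adjusted p = 4.02e-07). Ccl5 stood at 22.3, 20.3, 21.1 and 26.3 FPKM in wild type and 6.84, 9.15, 6.89 and 5.37 in knockout. Here too no library of one group entered the range of the other. Its log2 difference was -1.56 with an SE of 0.14 (limma, adjusted p = 3.29e-05), at rank 70 from the lowest of 11342, with Csf1 at rank 373.

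Ccl2 stood at 0.611, 0.437, 0.383 and 0.640 FPKM in wild type CT26 and 0.175, 0.157, 0 and 0.175 in knockout, with no overlap. These values correspond to 7, 4, 5 and 6 whole steps against 5, 2, 0 and 2 in libraries of unequal depth. The exact two-sided permutation test gave p = 0.0286, and limma without a filter gave an adjusted p of 0.00480. The background of genes from 0.3 to 2 FPKM that were lower without overlap was 6.67% of 4362. Csf2 was listed at 0, 0, 0 and 0.109 FPKM in wild type and 0, 0.0801, 0.193 and 0.179 in knockout, and its groups overlapped (exact permutation p = 0.257). Csf3 was listed at 0, 0.110, 0 and 0 against 0.0176, 0.0788, 0 and 0.0439 (exact permutation p = 0.8286). None of these Csf2 and Csf3 values was more than 2 steps, so a difference was not detectable at this depth. Il1a appeared in 1 knockout library at 0.0269 FPKM, and Il1b, Il18 and Ccl20 were listed at 0 in all 8 libraries. Groups did not overlap for 3 of the 9 members, against 28.3% of the 23932 genes above 0 in any CT26 library.

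**Figure D3:**
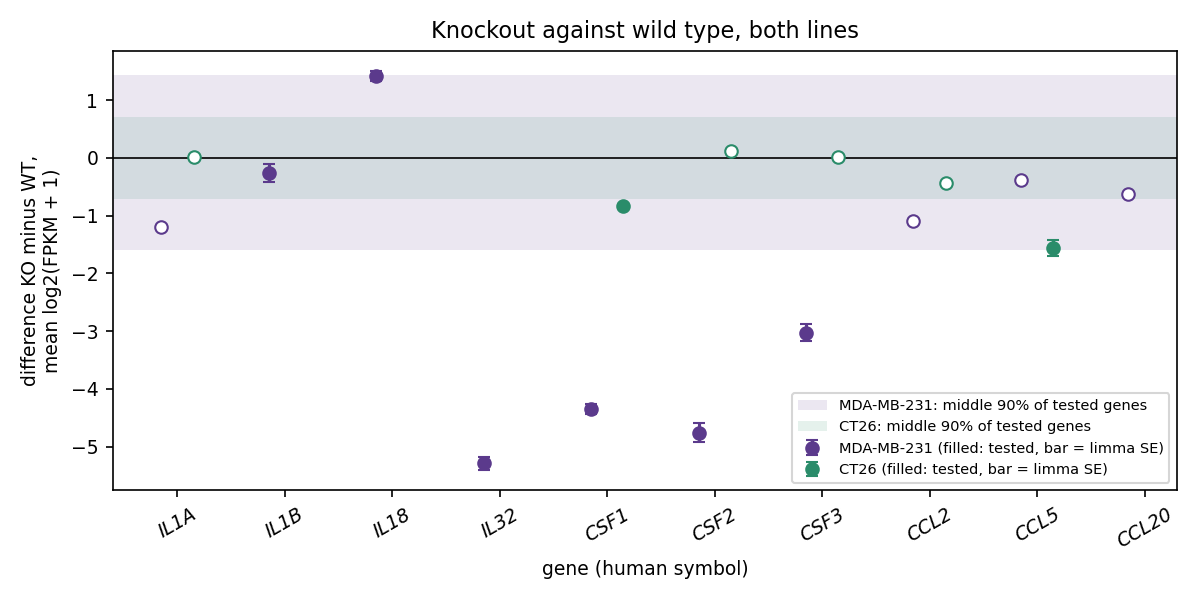
Log2 difference (knockout minus wild type, log2(FPKM + 1)) of each member in each line, with filled points and limma SE bars for tested genes, open points for genes under the filter, and the middle 90% of all tested genes of each line shaded. IL32, CSF2, CSF1 and CSF3 lie below the MDA-MB-231 band at -5.29 to -3.03, IL18 lies near its upper edge at 1.42, and Csf1 and Ccl5 lie below the CT26 band at -0.84 and -1.56.

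CSF1, CCL2 and CCL5 were lower in knockout without overlap in both lines. Their log2 differences were -4.34, -1.08 and -0.39 in MDA-MB-231 and -0.84, -0.43 and -1.56 in CT26. The share of all genes without overlap was 35.4% in MDA-MB-231 and 28.3% in CT26, in either direction. The share for both lines together was not computed, so the shared pattern has no background beside it. CCL2 was under the expression filter in both lines, and the authors' q-value for it passed in neither. CCL5 was near the detection limit in MDA-MB-231, whereas Ccl5 was the second most abundant member in CT26. CSF2 and CSF3, at 116 and 35.5 FPKM in wild type MDA-MB-231, had no counterpart in CT26 above 0.2 FPKM. The tables had been normalized separately, so the difference between the lines was not tested.

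The members lie on several chromosomes (hg38, GENCODE 29). IL1A (chr2:112773915-112784590) and IL1B (chr2:112829751-112836903) lie 45.2 kb apart on the minus strand of chromosome 2, and CCL20 (chr2:227805739-227817564) is far along the same chromosome. IL18 is at chr11:112143251-112164117, IL32 at chr16:3065297-3082192, CSF1 at chr1:109910242-109930992 and CSF2 at chr5:132073790-132076170. Chromosome 17 carries CCL2 (chr17:34255218-34257203), CCL5 (chr17:35871491-35880793) and CSF3 (chr17:40015361-40017813). In mm10, Csf1 is at chr3:107741048-107760469 and Ccl5 at chr11:83525778-83530518. Over the tested genes whose locus midpoint lay within 5 Mb of that of each human member, the median log2 difference lay from -0.09 to 0.58. Around CSF1 the 71 neighbours had a median log2 difference of -0.01, with 23 higher and 21 lower, around IL32 the 147 neighbours had 0.16, and around CSF3 the 166 neighbours had 0.24. The 55 neighbours of CSF2 had a median of -0.09, but the nearest tested genes included P4HA2, a collagen prolyl hydroxylase gene, at -3.45, and PDLIM4 at -2.03. Around IL18 the median of 44 neighbours was 0.19, and its own 1.42 lay above their upper quartile of 0.70. In CT26 the 59 neighbours of Csf1 had a median of -0.07 and the 81 of Ccl5 a median of -0.15.

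**Figure D4:**
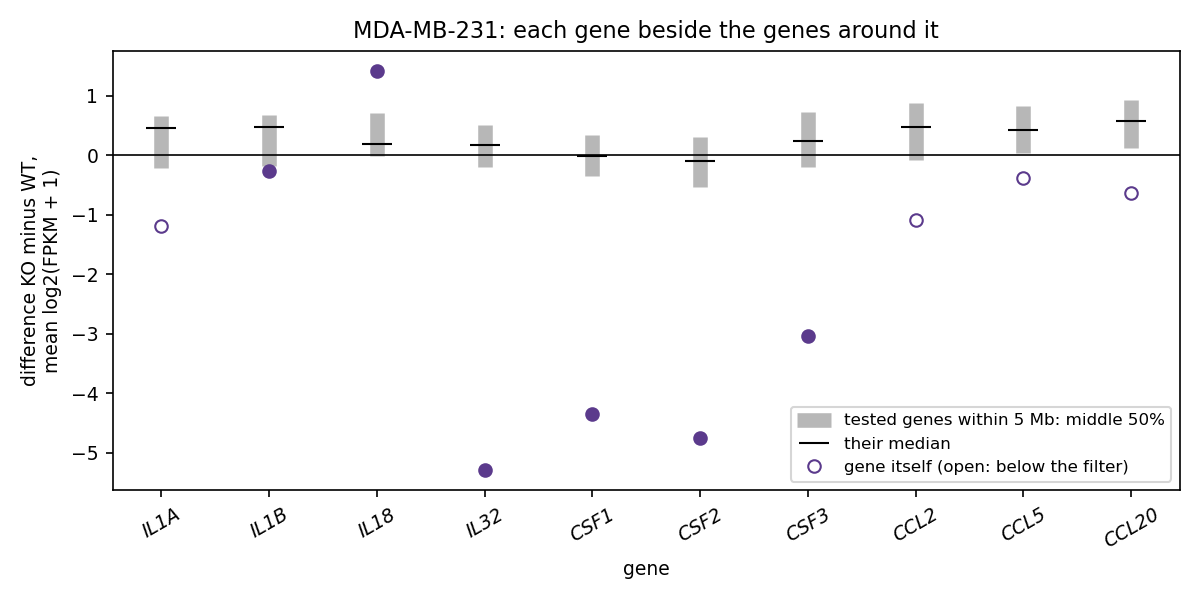
Log2 difference of each MDA-MB-231 member beside the tested genes within 5 Mb of it, shown as a grey bar over their middle 50% with a line at the median, and with open points for members under the filter. The neighbour medians lie from -0.09 to 0.58, and every member except IL18 lies below the lower quartile of its neighbours.

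The tested gene most like CSF1 over the 8 MDA-MB-231 libraries was JUP, which encodes the junction protein plakoglobin, at a Pearson r of 0.9998, going from 35.3 to 1.43 FPKM. CST4, ADAMTS9, AS3MT and P4HA1 followed, and 637 tested genes had r above 0.99 with CSF1. For Csf1 in CT26 the closest were Eprs (r = 0.9994), Cpd, Lamp2, Scarb2 and Ptgfrn, with 234 genes above 0.99. The 8 libraries of a line fall into the same 4 and 4 for every gene, so any gene with a large group difference scores high.

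The rest of the pathway was taken from gene lists. Among IL1 receptors and antagonists, 4 of 10 genes were tested in MDA-MB-231 and 2 of them fell, or 3 after upper-quartile scaling or quantile normalization. IL1R1, the signalling receptor for IL1A and IL1B, fell from a mean of 4.74 to 0.182 FPKM, a log2 difference of -2.29 with an SE of 0.13 (limma, adjusted p = 6.61e-07). SIGIRR, an inhibitory member of the receptor family, differed by -0.26 (adjusted p = 0.0227 in limma), a call lost with the replicate number as a block (0.0729) and without wild type replicate 1 (0.0619) or knockout replicate 1 (0.0564). IL1RAP, the partner of IL1R1, went from 7.39 to 5.14 FPKM (-0.51, adjusted p = 0.0714 in limma) and did not pass. It passed in limma after upper-quartile scaling (adjusted p = 0.0235), quantile normalization (0.0466) and without knockout replicate 3 (0.00729). IL1RN, which encodes the receptor antagonist, was under the filter at 0.749 FPKM in wild type and listed at 0 in every knockout library. In CT26, 7 of 10 were tested: Il1rap, the shared co-receptor, fell from 1.19 to 0.0529 FPKM (-1.05, limma, adjusted p = 2.55e-05), and Il1rl1, the IL33 receptor, rose from 45.6 to 52.6 (0.20, adjusted p = 0.0123). IL1R1 and Il1rap passed the filter only through wild type, as did PYCARD, CSF1R and CD14 in MDA-MB-231 and Casp1 and Cd274 in CT26. Ccr1 and Fos in CT26 passed it only through knockout. A gene admitted that way had to differ between the groups, so its p-value is no independent support.

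Of the genes that relay IL1 and Toll signals, 12 of 13 were tested in each line. In MDA-MB-231, 7 rose and 4 fell. The kinase gene IRAK2 fell from 9.76 to 2.64 FPKM (-1.57), and MAP3K7, which encodes TAK1, rose from 7.47 to 14.1 (0.84). In CT26, 1 rose and 6 fell, among them the adaptor gene Myd88, from 20.9 to 15.8 FPKM (-0.38), while Peli2 rose by 1.32. After upper-quartile scaling the counts were 4 and 4 in MDA-MB-231, and 2 higher and 4 lower in CT26.

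Genes for processing of the IL1B and IL18 precursors moved in both directions, with 5 of 12 tested higher and 5 lower in MDA-MB-231, or 4 and 7 after upper-quartile scaling or quantile normalization. PYCARD, which encodes the inflammasome adaptor ASC, fell from 14.8 to 0.0632 FPKM (-3.90 with an SE of 0.093, limma, adjusted p = 5.29e-09). CASP1 was under the filter, at a mean of 1.10 FPKM in wild type and 0.591 in knockout. In CT26, 2 of 9 tested rose and 5 fell, or 3 and 4 after upper-quartile scaling, and Casp1 fell from 5.29 to 0.0369 FPKM (-2.60 with an SE of 0.071, limma, adjusted p = 1.53e-07).

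Among the CSF receptors and IL34, both tested MDA-MB-231 genes fell. CSF2RA, the GM-CSF receptor alpha chain, went from 21.3 ± 1.83 to 0.691 ± 0.405 FPKM (-3.75, limma, adjusted p = 1.47e-07), and CSF1R from 4.32 ± 1.44 to 0.407 ± 0.270 (-1.90, adjusted p = 3.73e-05). CSF1R is also on the leukocyte list. In CT26 the tested gene was Il34, the other CSF1R ligand, which rose from 2.38 ± 0.621 to 4.67 ± 1.05 FPKM (0.74, limma, adjusted p = 0.00509) while Csf1 fell.

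Of 21 other CC chemokine genes in the human table, 13 were listed at 0 in all MDA-MB-231 libraries and 2 were tested, and both fell. CCL28, a chemokine of mucosal epithelia, went from 3.53 to 1.21 FPKM (-1.06, limma, adjusted p = 4.19e-04). CCL26 differed by -0.71 (limma, adjusted p = 0.0492), and that call was kept only without knockout replicate 1 or 3 when each library was left out in turn. In CT26, Ccl9 rose from 3.97 to 7.28 FPKM (0.83, limma, adjusted p = 0.0485), and that call was kept only without wild type replicate 1 or 2. The chemokine receptor gene Ccr1 rose from 0.215 to 1.47 FPKM in CT26 (1.03, limma, adjusted p = 2.74e-05). The tested receptor in MDA-MB-231, CCRL2, differed by -0.32 (limma, adjusted p = 0.0325), a call kept only without wild type replicate 1 or knockout replicate 3 or 4.

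**Figure D5:**
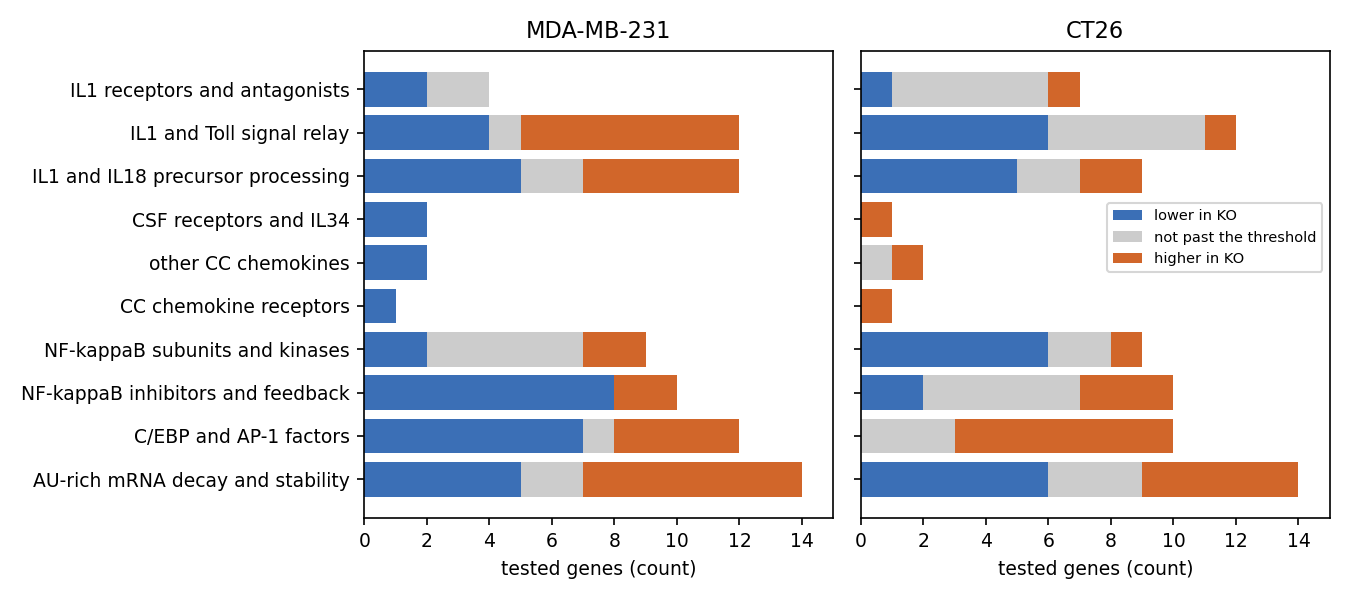
Number of tested genes in each pathway list that were lower, not past the threshold or higher in knockout, for MDA-MB-231 (left) and CT26 (right). Of the NF-kappaB inhibitors and feedback genes 8 of 10 were lower in MDA-MB-231, and of the C/EBP and AP-1 factors 7 of 10 were higher in CT26.

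NF-kappaB inhibitors and feedback genes, of which some but not all are known NF-kappaB targets, fell in 8 of 10 tested cases in MDA-MB-231 and rose in 2. Their median log2 difference was -1.503 against 0.18 over all genes. NFKBIA, which encodes the inhibitor IkappaB-alpha, went from 148 ± 4.001 to 35.6 ± 7.04 FPKM (-2.05), TNIP1 from 206 to 51.7 (-1.98), BCL3 from 55.5 to 3.98 (-3.54) and NFKBIE from 49.2 to 7.61 (-2.57). Of the 9 subunits and kinases, 2 were higher and 2 lower, and the rest did not pass. RELB fell from 27.3 to 2.41 FPKM (-3.06) and NFKB2 from 54.8 to 12.96 (-1.998), and CHUK rose from 12.98 to 24.9 (0.89). MAP3K14 rose by 0.25, a call lost after upper-quartile scaling (adjusted p = 0.516 in limma) and quantile normalization (0.0756). After upper-quartile scaling 5 of the 9 were lower and 1 higher. In CT26, 6 of 9 subunits and kinases fell and 1 rose, with Nfkb2 going from 57.9 to 39.7 FPKM (-0.53) and Relb from 8.45 to 6.23 (-0.39). The CT26 inhibitor list had 3 higher and 2 lower of 10, and 6 and 2 after upper-quartile scaling.

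The C/EBP and AP-1 factors had 4 higher and 7 lower of 12 tested in MDA-MB-231, or 2 and 7 after either scaling, where JUNB went from 22.5 to 10.7 FPKM (-1.004) and FOSL2 from 90.3 to 40.2 (-1.14). In CT26, 7 of 10 rose and the other 3 did not pass. There Fos went from 0.576 to 14.3 FPKM (3.27), Jun from 14.3 to 47.9 (1.67) and Junb from 22.9 to 56.1 (1.26). The list for mRNA decay and stability includes genes that act on AU-rich mRNAs, a class to which CSF2 and CSF3 belong. Of its 14 genes, 7 rose and 5 fell in MDA-MB-231, or 6 and 5 after upper-quartile scaling. ZC3H12A, which encodes the RNase Regnase-1, fell from 33.8 to 3.93 FPKM (-2.83), ZFP36, which encodes tristetraprolin, fell from 11.7 to 4.62 (-1.18), and DUSP1 rose from 10.4 to 37.7 (1.77). In CT26, 5 rose and 6 fell, or 5 and 4 after that scaling, with Zfp36 going from 7.19 to 13.4 FPKM (0.82) and Dusp1 from 11.0 to 28.8 (1.31). The lists are given by counts, beside the backgrounds above, and were not tested as sets.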

How the data were processed

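The submitters' processing notes name bcl2fastq 2.18, the aligner STAR 2.5.4a, Cufflinks 2.2.1 and Cuffdiff, and the builds hg38 and mm10. The sources used here do not give the annotation release, the use of strand or any setting. The authors deposited 1 table per line with FPKM per gene and library, and their own q-value per gene. The members and lists were chosen with earlier results of these data known. Depth is known only relative to other libraries: among low values, the share lying within 2% of a whole multiple of the smallest step was 68.6% (MDA-MB-231) and 69.0% (CT26), leaving out the smallest values themselves.

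Genes with at least 1 FPKM in at least 4 of 8 libraries were tested on log2(FPKM + 1) with limma 3.58.1 (R 4.3.3, mean-variance trend, group as the only term), with Benjamini-Hochberg adjustment over all tested genes of the line and a threshold of 0.05. Such differences understate the change of low genes. Members under the filter had an exact two-sided permutation test over all 70 assignments (scipy 1.17.1). Named genes are the members, the targeted gene, up to 4 tested genes per list with the smallest adjusted p, and the 5 genes most like CSF1 or Csf1. IL1RN, CASP1, P4HA2, PDLIM4 and those with levels near or at 0 that are not members were named after their values were seen. Same-numbered libraries deviated together with r from -0.0365 to 0.00442 in MDA-MB-231 and from 0.0273 to 0.0779 in CT26, so the numbers were not used as pairs. Alternatives were other pseudocounts, filters and scalings, a replicate block, no trend and each library left out. The test was also tried on simulated data.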

Additional observations from a re-analysis of the deposited data

Results flagged for a closer look

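In groups of 4 libraries, 1 library can stand far from the other 3. For normally distributed values chance gives this in about 1 in 20 groups. The genes concerned are all low, in most cases with the other 3 libraries tied at 0, so that rate does not apply to them.

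CCL20 had 1 wild type MDA-MB-231 library, replicate 1, at 1.04 FPKM above the rest, and 1 knockout library, replicate 3, at 0.190 FPKM where the others were listed at 0. In CT26, Il1a was seen in 1 knockout library at 0.0269 FPKM, Csf2 in 1 wild type library at 0.109 FPKM and Csf3 in 1 wild type library at 0.110 FPKM. Ccl2 was listed at 0 in 1 knockout library, replicate 3, against 0.157 to 0.175 FPKM in the others.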

How the results depend on the processing

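Without a filter on low values, 9 members passed in MDA-MB-231 rather than 5. Over all genes, 11115 of 31429 then passed rather than 9860 of 14450. CD274 passed after upper-quartile scaling (-0.40) and quantile normalization (-0.32). With the replicate number as a block, 5 members passed in MDA-MB-231 and 2 in CT26, the same counts as without it, and 9648 and 6032 genes in all. Of the named genes with a limma call, SIGIRR (adjusted p = 0.0729) and CCL26 (adjusted p = 0.0585) lost it under the block, and no other did. In CT26 every library deviated most like its own number, in MDA-MB-231 none did. Leaving out each library in turn gave 5 to 6 members in MDA-MB-231 and 2 in CT26, and 9338 to 9602 and 5773 to 6008 genes in all. The exact test of 3 against 4 libraries cannot go below 0.0571, so the permutation calls of IL1A, CCL2, CCL5, CCL20 and Ccl2 cannot pass there. No called result reversed in any alternative run. Depth limits what can be said of Csf2, Csf3 and Il1a in CT26 and of the CC chemokines in knockout MDA-MB-231, where values rest on a few fragments.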
